A study of Mus musculus with 68 samples.

Results

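Vitamin A acts in most tissues through retinoic acid, and 8 genes that import, make, carry, sense or destroy this hormone are described here in the uterus of ovariectomized mice. They are Stra6, Aldh1a1, Aldh1a2, Aldh1a3, Crabp1, Crabp2, Rara and Cyp26a1. They were chosen with earlier results of these data known and taken by symbol. Each was measured by 1 probe set annotated to that symbol alone, and they are 8 of the 30142 genes measured on 68 arrays. In wild-type uterus, estradiol (E2) and insulin-like growth factor 1 (IGF1) both raised Aldh1a2 within 2 h, and after 24 h both raised Crabp1. The responses to E2 were not detected in mice null for Esr1, the gene of estrogen receptor alpha, or in mice that lack it in part of their cells. Under IGF1 at 24 h, 4 of the 8 genes still changed in both kinds of Esr1-deficient mice. Of all genes, 18.6% were called for IGF1 at 24 h in the null mice and 32.4% in the others. For E2 at 24 h 0.00% of all genes were called in either, so the contrast is not particular to these 8 genes.

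Retinol circulates bound to a carrier protein and enters many cells through the membrane receptor encoded by Stra6. It is oxidized first to retinal and then, irreversibly, to retinoic acid by the retinaldehyde dehydrogenases encoded by Aldh1a1, Aldh1a2 and Aldh1a3. The small cytoplasmic proteins encoded by Crabp1 and Crabp2 bind retinoic acid. CRABP2 can hand it to nuclear receptors, among them retinoic acid receptor alpha (Rara), while CYP26A1 oxidizes it to inactive products. In the uterus, retinoid synthesis and breakdown are known to change with the ovarian hormones and around implantation.

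The series asks what part estrogen receptor alpha plays in the response of the uterus to IGF1. All mice were ovariectomized, so the ovary's own estrogen was absent in every group. Vehicle was saline and was sampled at 24 h only; E2 was 250 ng in saline, sampled at 2 h or 24 h; IGF1 was sampled at 2 h or 24 h and was given either as 50 ug injected in PBS or by osmotic pump at 0.5 mg/ml, and the labels do not say which mice received which. There were 3 mouse sets, each with all 5 treatments. The first was wild-type C57Bl6 mice from Charles River (14 arrays). The second was Ex3aERKO mice, which are Esr1-null on a C57Bl6 background (11 arrays), with wild-type littermates (14 arrays). The third was ERaUtcKO mice, Esr1f/f;PgrCre+ (15 arrays), with wild-type littermates (14 arrays); Cre is driven by the progesterone receptor gene there, so cells that never express that gene keep Esr1. Of the 25 groups, 18 had 3 arrays and 7 had 2, because the submitters left out 1 of 3 replicates as an outlier in a principal component analysis. The labels call the arrays replicates and do not state whether each was 1 mouse, so p-values measure the spread between these arrays.

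Levels are given as deposited, as log2 intensities, in which a difference of 1 is a factor of 2. The median gene lay at 6.93 to 7.10 on the C57Bl6 arrays, 6.17 to 6.33 in the Ex3aERKO set and 6.59 to 6.80 in the ERaUtcKO set, so levels are compared only within a mouse set. The background of an array was taken as the 95th percentile of its 23 antigenomic control probe sets. Esr1 was lower on every knockout array than on every littermate array of its set, at 9.38 to 10.29 against 11.44 to 12.73 for Ex3aERKO and 10.28 to 11.10 against 11.66 to 12.39 for ERaUtcKO; the probe set covers the gene as a whole, not the deleted exon alone. All 14 epithelial, 12 stromal and 12 smooth muscle marker genes measured were above background on at least 1 array of every group. Liver transcripts varied between arrays: the mean over 10 liver markers ran from 6.47 to 11.1 on C57Bl6 arrays and from 6.12 to 11.9 in the ERaUtcKO set, against 5.05 to 5.98 in the Ex3aERKO set. The arrays with a liver mean over 9 were all 3 C57Bl6 vehicle arrays and, in the ERaUtcKO set, 2 knockout vehicle arrays and 1 knockout array of IGF1 at 2 h. These 6 are called liver-rich here, but others also held liver RNA, such as replicate 3 of E2 at 2 h in C57Bl6 mice (mean 8.94) and replicates 1 and 2 of vehicle in ERaUtcKO littermates (8.62 and 8.30). For the 8 genes, calls that change when the 6 are left out are given with both values. Results of other genes without these arrays are not given. Leaving them out removes the whole C57Bl6 vehicle group, so that wild-type comparisons with vehicle then rest on the littermates, and leaves the ERaUtcKO vehicle group with 1 array, assumed to vary like the other groups. The mean over 8 adipocyte markers also varied, from 6.48 to 9.85, 6.60 to 11.6 and 6.51 to 11.0 in the 3 sets. In bulk tissue, fewer cells of a type and less RNA per cell cannot be told apart.

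The start-site sequences of the genes whose levels moved most, and of the gene that retinoic acid itself is known to switch on, are shown first. RefSeq windows of 300 bases (250 before and 50 after a start site, build GRCm38.p6) were listed for 6 of the 8 genes; Aldh1a3 and Crabp2 are named only. Cyp26a1 (chr19:37697738-37701536) is the textbook target of retinoic acid receptors. Its window was the only one of the 8 genes' windows with a direct repeat of the receptor half-site spaced by 5 bases, searched on both strands as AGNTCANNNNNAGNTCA; 0.204% of the 32851 windows in the table hold such a match. The match lies on the minus strand at chr19:37697776-37697792. That is from -32 to -16 relative to the start site of its window, chr19:37697558-37697857. The gene span given above begins before that start site, so the match lies inside the span. It is written in capitals in the plus-strand stretch chr19:37697770-37697799.

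Cyp26a1: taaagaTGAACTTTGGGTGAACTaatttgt

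Crabp1 (chr9:54764748-54773110) and Aldh1a2 (chr9:71215789-71296243) had the largest responses of the 8 genes to E2 at 24 h and at 2 h. The 250 bases before each start are chr9:54764498-54764747 and chr9:71215539-71215788, both on the plus strand. Capitals mark GC boxes in Crabp1 (GGGCGG on either strand, in 35.7% of all windows) and the CCAAT box in Aldh1a2 (CCAAT on either strand, in 37.4% of all windows). Neither window, nor that of any other of the 6 genes, held the estrogen response element searched as GGTCANNNTGACC, which 0.0700% of windows hold, or the half-site repeat spaced by 2 bases, AGNTCANNAGNTCA, which 0.107% hold. These letters were absent from these windows only, which says nothing about binding elsewhere.

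Crabp1: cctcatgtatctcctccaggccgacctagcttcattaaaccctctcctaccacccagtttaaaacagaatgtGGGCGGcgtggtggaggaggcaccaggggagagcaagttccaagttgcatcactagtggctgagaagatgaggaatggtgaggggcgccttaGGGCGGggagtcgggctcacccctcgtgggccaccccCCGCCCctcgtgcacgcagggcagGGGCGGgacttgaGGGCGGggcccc

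Aldh1a2: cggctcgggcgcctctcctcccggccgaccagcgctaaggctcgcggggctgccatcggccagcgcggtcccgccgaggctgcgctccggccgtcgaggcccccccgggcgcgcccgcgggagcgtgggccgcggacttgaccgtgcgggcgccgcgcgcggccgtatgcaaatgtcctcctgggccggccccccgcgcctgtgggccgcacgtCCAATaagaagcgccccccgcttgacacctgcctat

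The remaining genes are Aldh1a1 at chr19:20492583-20643463, Aldh1a3 at chr7:66390892-66427477, Crabp2 at chr3:87948693-87953372, Stra6 at chr9:58063793-58154004 and Rara at chr11:98927800-98974942. Aldh1a1 has a near-identical neighbor, Aldh1a7 (chr19:20692953-20727556), and array probes could bind transcripts of both, so Aldh1a1 values are uncertain and those of Aldh1a7 stand beside some of them. The likeness of the pair shows in the 100 bases before the second RefSeq start of Aldh1a1 (chr19:20601868-20601967, plus strand) and before the start of Aldh1a7 (chr19:20727557-20727656, minus strand), in which 94 of 100 bases are the same without gaps. Capitals mark a CCAAT box in each.

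Aldh1a1: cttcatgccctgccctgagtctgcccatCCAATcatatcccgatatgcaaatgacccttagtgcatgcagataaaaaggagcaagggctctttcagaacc

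Aldh1a7: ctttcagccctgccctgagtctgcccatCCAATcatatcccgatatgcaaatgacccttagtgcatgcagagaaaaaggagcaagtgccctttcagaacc

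**Figure D1:**
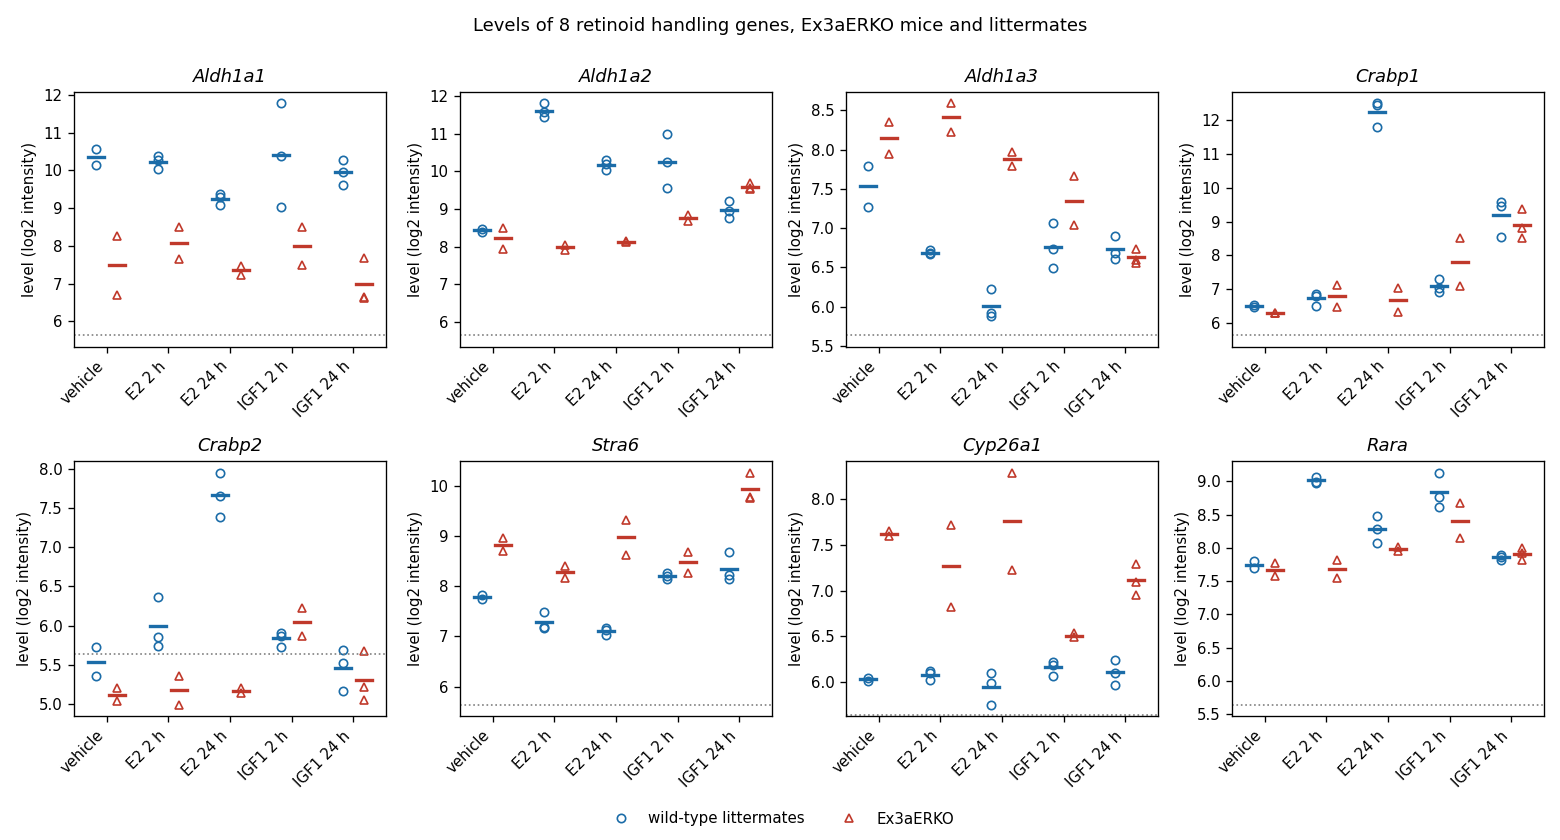
Deposited log2 intensity (y axis) of the 8 genes on each array of the Ex3aERKO set, by treatment (x axis: vehicle, E2 and IGF1 at 2 h and 24 h). Circles are littermate arrays, triangles Ex3aERKO arrays, bars group means and the dotted line the 95th percentile of the antigenomic controls; Crabp1 under E2 at 24 h stands at 11.81 to 12.51 in littermates and at 6.33 to 7.04 in Ex3aERKO mice.

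In wild-type uterus E2 changed genes of retinol uptake, retinoic acid synthesis, binding and reception, while the breakdown gene Cyp26a1 did not pass the test. Within 2 h the retinoic acid-making enzyme gene Aldh1a2 and the receptor gene Rara rose, and Aldh1a3 and Stra6 fell. By 24 h Crabp1 and Crabp2 were higher than under vehicle, Aldh1a2 and Rara remained higher than under vehicle, and Aldh1a1, Aldh1a3 and Stra6 were lower. The WT comparisons combined the 42 wild-type arrays with mouse set as a term and were tested with limma, with Benjamini-Hochberg adjustment over all genes and a call at an adjusted p under 0.05. Of the 8 genes, 4 were called at 2 h, when 40.0% of all genes were, and 7 at 24 h, when 56.2% of all genes were, so the 2 h count is close to the background. Changes of at least 2-fold were called for 2 of the 8 at 2 h against 5.33% of all genes, and for 5 of the 8 at 24 h against 8.77%. As the 8 genes were chosen with earlier results known, counts above these shares are descriptions only. The median difference of the 8 genes was 0.15 at 2 h and 0.16 at 24 h, against -0.05 and -0.07 over all genes. Since vehicle was sampled at 24 h only, the 2 h comparisons also span a difference in time after injection. Of all genes called at 2 h, 43.1% were higher, or 60.2% when each array was centred on its median, and at 24 h 43.7% or 56.5%; the directions of the 8 genes called here were the same under both.

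Aldh1a2, whose product is the main retinoic acid-making enzyme of the early embryo, was the most responsive of the 8 genes at 2 h. In Ex3aERKO littermates it read 8.48 and 8.40 under vehicle, 11.58, 11.45 and 11.82 at 2 h of E2 and 10.20, 10.05 and 10.30 at 24 h. In ERaUtcKO littermates it read 8.32, 8.17 and 8.57 under vehicle, 11.62, 11.91 and 11.66 at 2 h and 10.78, 10.62 and 11.05 at 24 h. C57Bl6 mice began higher, at 11.28, 11.24 and 11.23, and reached 14.06, 13.61 and 13.78 at 2 h. Every E2 array lay above every vehicle array of its set at both times. Aldh1a2 rose 8.30-fold at 2 h, a log2 difference of 3.05 ± 0.16 (SE; adjusted p = 6.7e-19), and 3.87-fold at 24 h (1.95 ± 0.16, adjusted p = 2.6e-13). Its level fell by 1.10 ± 0.16 on the log2 scale between 2 h and 24 h of E2 (adjusted p = 1.3e-07). Stromal markers moved with it at 2 h in the other direction, 10 of 12 lower and 2 higher with a median of -0.74; their part in the result was not tested.

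Crabp1, which encodes a retinoic acid-binding protein of the cytoplasm, was near its vehicle level at 2 h and had the largest change of the 8 genes at 24 h. It read 6.53 and 6.48 under vehicle in Ex3aERKO littermates, 6.81, 6.50 and 6.87 at 2 h of E2, and 11.81, 12.47 and 12.51 at 24 h. The 24 h readings were 10.98, 9.74 and 11.15 in ERaUtcKO littermates, against 5.78, 6.24 and 6.27 under vehicle, and 11.22, 10.91 and 11.14 in C57Bl6 mice, against 7.31, 7.70 and 7.65. No array of the 24 h groups came near a vehicle array. The rise at 24 h was 23.9-fold (4.58 ± 0.27, adjusted p = 1.4e-17), while the 2 h difference of 0.33 ± 0.27 did not pass the test (adjusted p = 0.373). Within single mouse sets the log2 rise at 24 h was 3.54, 5.76 and 4.53.

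Crabp2, the related protein that delivers retinoic acid to its receptors, had a low signal. Only 2 of 14 C57Bl6 arrays, 14 of 25 arrays of the Ex3aERKO set and 10 of 29 of the ERaUtcKO set were above background. It read 7.65, 7.95 and 7.38 at 24 h of E2 in Ex3aERKO littermates against 5.72 and 5.35 under vehicle, and 7.32, 7.10 and 7.77 in ERaUtcKO littermates against 5.62, 5.97 and 5.52. The groups did not overlap. The log2 difference over all wild-type arrays at 24 h was 1.66 ± 0.13 (adjusted p = 1.4e-13). At 2 h it was 0.31 ± 0.13 (adjusted p = 0.0684), and this passed after centring (0.40, adjusted p = 0.0187), after quantile normalization (0.38, 0.0263) and without replicate 2 of vehicle (0.0390) or of E2 at 24 h (0.0212) in C57Bl6 mice, replicate 2 of E2 at 24 h in Ex3aERKO littermates (0.0466) or replicate 2 of vehicle in ERaUtcKO littermates (0.0483). With background put in place of the vehicle signal, the rise was at least 3.58-fold in Ex3aERKO littermates and at least 3.06-fold in ERaUtcKO littermates; no fold is given for C57Bl6 mice, where 2 of 3 arrays at 24 h were above background. Epithelial markers rose at 24 h together with Crabp1 and Crabp2, 13 of 14 higher with a median of 2.00, and their part in these results was not tested.

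Rara, a nuclear receptor for retinoic acid, rose early and by a similar amount in the 3 sets. It read 7.69 and 7.80 under vehicle and 9.07, 8.98 and 8.99 at 2 h of E2 in Ex3aERKO littermates, and 8.20, 7.94 and 8.25 against 9.34, 9.41 and 9.28 in ERaUtcKO littermates. The rise was 2.23-fold at 2 h (1.16 ± 0.09, adjusted p = 1.5e-13), with no overlap of the groups. At 24 h it was 1.32-fold (0.40 ± 0.09, adjusted p = 0.00039), but in C57Bl6 mice alone the 24 h difference was -0.04 (adjusted p = 0.803), with 9.45, 9.31 and 9.25 against 9.49, 9.35 and 9.29 under vehicle. It was 0.53 and 0.72 in the littermates of Ex3aERKO and ERaUtcKO mice.

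Aldh1a3, another retinaldehyde dehydrogenase, went the opposite way to Aldh1a2. It read 7.79 and 7.27 under vehicle, 6.72, 6.68 and 6.67 at 2 h of E2 and 6.22, 5.88 and 5.92 at 24 h in Ex3aERKO littermates. In C57Bl6 mice the steps were 8.83, 8.65 and 8.79, then 8.01 on all 3 arrays, then 6.78, 6.74 and 7.09. The level fell by 0.58 ± 0.12 on the log2 scale by 2 h (adjusted p = 7.6e-05) and 2.67-fold by 24 h (-1.42 ± 0.12, adjusted p = 2.9e-13). The 2 h groups overlapped in ERaUtcKO littermates, where the difference alone was -0.23 (adjusted p = 0.167).

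Stra6, the retinol uptake receptor, was lower after E2, most at 24 h. It read 9.64, 9.64 and 9.77 under vehicle and 8.37, 8.46 and 8.41 at 24 h in C57Bl6 mice, and 8.38, 8.55 and 8.32 against 7.62, 7.77 and 7.67 in ERaUtcKO littermates. It fell 1.87-fold at 24 h (-0.90 ± 0.10, adjusted p = 8.8e-10) without overlap in any set, and 1.29-fold at 2 h (-0.37 ± 0.10, adjusted p = 0.0030), where ERaUtcKO littermates alone gave -0.20 (adjusted p = 0.216).

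Aldh1a1, the retinaldehyde dehydrogenase with the near copy, fell 2.10-fold at 24 h of E2 (-1.07 ± 0.25, adjusted p = 0.00036). In C57Bl6 mice it read 12.61, 12.56 and 12.57 under vehicle and 10.97, 10.95 and 11.47 at 24 h, a difference of -1.45 (adjusted p = 0.00076). Liver markers were lower there too, with array means of 9.08 to 11.1 under vehicle and 6.56 to 6.88 at 24 h; their part in the result was not tested. The differences within Ex3aERKO littermates (-1.11, adjusted p = 0.147) and ERaUtcKO littermates (-0.63, adjusted p = 0.105) did not pass the test alone, although every array at 24 h lay below vehicle in the former. Aldh1a7 fell too, by 0.61 ± 0.24 (adjusted p = 0.0269), so the 2 genes cannot be told apart in this comparison. The difference in Aldh1a1 at 2 h was -0.51 ± 0.25 (adjusted p = 0.102). It was -1.37 in C57Bl6 mice alone (adjusted p = 0.0013) and -0.13 and -0.02 in the littermates of Ex3aERKO and ERaUtcKO mice. Over all sets it passed after quantile normalization (-0.69, adjusted p = 0.0260) and without replicate 2 of IGF1 at 2 h in Ex3aERKO littermates (adjusted p = 0.0406) or replicate 1 of vehicle in ERaUtcKO littermates (adjusted p = 0.0291). Cyp26a1, the breakdown enzyme, differed from vehicle by -0.01 ± 0.10 at 2 h and -0.08 ± 0.10 at 24 h (adjusted p = 0.953 and 0.505), and it was below background on all 14 C57Bl6 arrays.

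**Figure D2:**
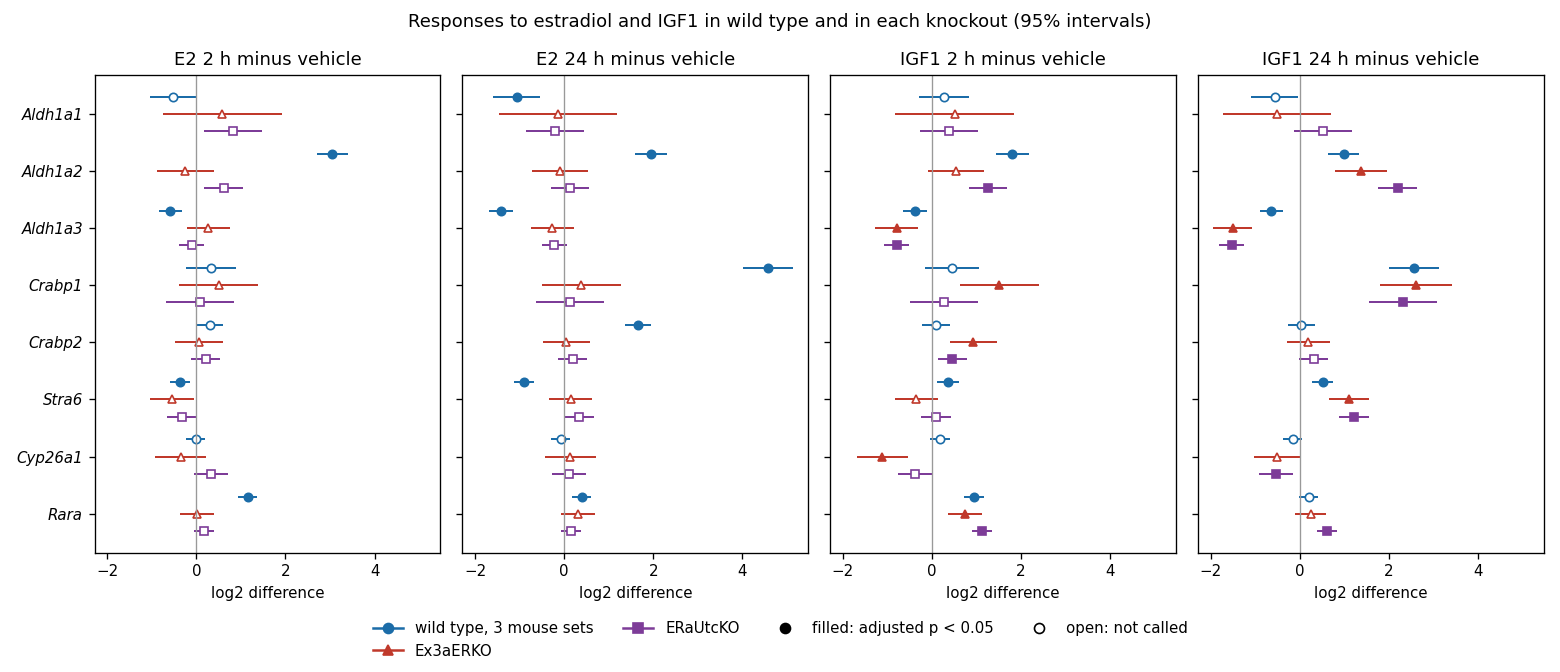
Log2 difference from vehicle (x axis) of each of the 8 genes (y axis) under E2 and IGF1 at 2 h and 24 h, 1 panel each, with 95% confidence intervals. Blue circles are wild-type mice, red triangles Ex3aERKO and purple squares ERaUtcKO mice, filled where the adjusted p was under 0.05; the E2 panels hold filled symbols for wild-type mice only, while at 24 h of IGF1 Aldh1a2, Aldh1a3, Crabp1 and Stra6 are filled in all 3.

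IGF1, a growth factor that drives proliferation of uterine cells, also raised Aldh1a2, Rara and Crabp1 in wild-type uterus, and it raised Stra6, which E2 lowered. At 2 h 4 of the 8 genes were called, when 35.9% of all genes were, and at 24 h 4 were called, when 40.9% were, so neither count stands far from the background. Median differences of the 8 genes were 0.31 and 0.12, against -0.04 and -0.06 over all genes. Both hormones were set against the same vehicle arrays. Vehicle and E2 were given in saline, while IGF1 was given in PBS or by osmotic pump. Differences of IGF1 from vehicle, in knockouts too, or from E2 therefore also hold the carrier and the route. These cannot be told apart from IGF1 itself. Of all called genes 47.1% were higher at 2 h, or 63.4% after centring, and 47.2% or 60.9% at 24 h.

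Aldh1a2 read 10.24, 9.55 and 10.99 at 2 h of IGF1 in Ex3aERKO littermates, 9.80 and 10.81 in ERaUtcKO littermates and 12.74 and 12.82 in C57Bl6 mice, all above vehicle. The rise was 3.49-fold (1.80 ± 0.17, adjusted p = 3.4e-11). At 24 h it was 1.98-fold (0.99 ± 0.16, adjusted p = 4.6e-06), uneven over the sets: 0.71 in C57Bl6 mice, 0.54 in Ex3aERKO littermates, where it did not pass alone (adjusted p = 0.370), and 1.68 in ERaUtcKO littermates. Rara read 9.13, 8.61 and 8.77 at 2 h in Ex3aERKO littermates and 8.81 and 9.23 in ERaUtcKO littermates, and rose 1.92-fold (0.94 ± 0.10, adjusted p = 3.2e-10). Its difference at 24 h was 0.20 ± 0.09 (adjusted p = 0.0831); it passed without replicate 1 of C57Bl6 vehicle (0.25, adjusted p = 0.0336) and with the liver-rich arrays left out (0.34, adjusted p = 0.0086), when C57Bl6 mice have no vehicle array. In single sets it was -0.04 in C57Bl6 mice, 0.12 in Ex3aERKO littermates and 0.55 in ERaUtcKO littermates.

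Crabp1 followed the late course seen with E2. At 24 h of IGF1 it read 9.59, 8.55 and 9.45 in Ex3aERKO littermates, 8.72, 10.11 and 9.27 in ERaUtcKO littermates and 9.91, 9.34 and 8.87 in C57Bl6 mice, each above every vehicle array of its set. It rose 5.91-fold (2.56 ± 0.27, adjusted p = 5.7e-10), against 0.45 ± 0.29 at 2 h (adjusted p = 0.255). Crabp2, by contrast, differed from vehicle by 0.09 ± 0.14 at 2 h and 0.04 ± 0.13 at 24 h (adjusted p = 0.704 and 0.838).

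Stra6 read 10.18 and 10.31 at 2 h and 10.04, 10.12 and 10.49 at 24 h in C57Bl6 mice, and 8.14, 8.26 and 8.20, then 8.22, 8.14 and 8.68 in Ex3aERKO littermates, with no overlap with vehicle. It rose 1.28-fold at 2 h (0.36 ± 0.11, adjusted p = 0.0079) and 1.43-fold at 24 h (0.51 ± 0.10, adjusted p = 9.7e-05); the 2 h difference was 0.10 in ERaUtcKO littermates alone (adjusted p = 0.639). Smooth muscle markers rose at 24 h as well, 11 of 12 with a median of 0.84, and stromal markers, 8 of 12 higher and 1 lower; their part was not tested. Aldh1a3 fell 1.56-fold at 24 h (-0.64 ± 0.12, adjusted p = 3.3e-05). Its difference at 2 h, -0.38 ± 0.13 (adjusted p = 0.0163), was not called without replicate 2 of vehicle (-0.30, adjusted p = 0.0622) or replicate 2 of IGF1 at 2 h (-0.30, adjusted p = 0.0575) in Ex3aERKO littermates, after centring (adjusted p = 0.0960), or with the liver-rich arrays, and so all C57Bl6 vehicle arrays, left out (-0.27, adjusted p = 0.151).

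Aldh1a1 differed from vehicle by 0.26 ± 0.27 at 2 h and -0.56 ± 0.25 at 24 h of IGF1 (adjusted p = 0.505 and 0.0676). At 2 h it was 1.10 in ERaUtcKO littermates alone (adjusted p = 0.0418), every array above vehicle, against 0.04 in Ex3aERKO littermates and -0.19 in C57Bl6 mice. Aldh1a7 gave 1.17 in ERaUtcKO littermates at 2 h, also without overlap. With overlap it gave 1.11 in Ex3aERKO littermates and -0.25 in C57Bl6 mice. The 24 h difference of Aldh1a1 passed without replicate 2 of IGF1 at 2 h in Ex3aERKO littermates (adjusted p = 0.0253) or replicate 1 of vehicle in ERaUtcKO littermates (adjusted p = 0.0210), and in C57Bl6 mice alone (-1.30, adjusted p = 0.0027). Cyp26a1 differed by 0.19 ± 0.10 and -0.15 ± 0.10 (adjusted p = 0.162 and 0.199), the former passing after centring (0.27, adjusted p = 0.0233) and after quantile normalization (0.30, 0.0221). In ERaUtcKO littermates alone Cyp26a1 was higher at 2 h, at 7.39 and 6.94 against 6.50, 6.36 and 6.47 under vehicle, a log2 difference of 0.72 (adjusted p = 0.0011); the other sets gave 0.13 and, below background, -0.22.

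Set directly against each other at matched times, E2 and IGF1 differed in 3 of the 8 genes at 2 h, when 22.0% of all genes differed, and in 5 at 24 h, when 28.1% did. Stra6 differed most clearly in direction: E2 minus IGF1 was -0.73 ± 0.11 at 2 h (adjusted p = 6.4e-07) and -1.41 ± 0.10 at 24 h (adjusted p = 1.5e-14), a level 2.66-fold lower under E2. Aldh1a2 was higher under E2, by 1.25 ± 0.17 at 2 h (adjusted p = 1.4e-07) and 0.97 ± 0.16 at 24 h (adjusted p = 5.6e-06). The binding proteins separated the hormones at 24 h only. Crabp1 was 4.04-fold higher under E2 (2.01 ± 0.26, adjusted p = 7.7e-08), with 1.26 in ERaUtcKO littermates alone (adjusted p = 0.0585). Crabp2 was higher by 1.62 ± 0.13 (adjusted p = 8.0e-13). It was above background on only 2 of 14 C57Bl6 arrays, so the size of its difference is uncertain.

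Aldh1a3 was lower under E2 at 24 h, by -0.78 ± 0.11 (adjusted p = 8.7e-07). For Aldh1a1 the 2 h difference of -0.77 ± 0.26 (adjusted p = 0.0245) was not called without any one of 4 arrays: replicate 3 of E2 at 2 h in C57Bl6 mice (adjusted p = 0.0579), replicate 3 of IGF1 at 2 h in Ex3aERKO littermates (0.101), or replicate 2 of IGF1 at 2 h (0.0857) and replicate 1 of E2 at 2 h (0.0561) in ERaUtcKO littermates. Rara differed between the hormones by 0.21 at 2 h and 0.20 at 24 h (adjusted p = 0.125 and 0.106). It passed at 2 h without replicate 1 of IGF1 at 2 h in Ex3aERKO littermates (adjusted p = 0.0366), and at 24 h without replicate 3 of E2 at 24 h in C57Bl6 mice (0.0419) or replicate 3 of IGF1 at 24 h in ERaUtcKO littermates (0.0499).

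Between 2 h and 24 h Crabp1 rose and Aldh1a2 and Rara receded under both hormones, while Aldh1a3 and Stra6 fell further below vehicle under E2. Under E2, 6 of the 8 genes differed between the times, when 51.2% of all genes did: Crabp1 was 19.0-fold higher at 24 h (4.25 ± 0.26, adjusted p = 2.7e-17) and Crabp2 higher by 1.35 ± 0.13 (adjusted p = 1.2e-11), while Aldh1a2, Aldh1a3, Stra6 and Rara were lower. Aldh1a1 differed by -0.55 (adjusted p = 0.053), and it passed without any one of 9 arrays (adjusted p from 0.0194 to 0.0488): replicates 2 and 3 of E2 at 2 h, replicate 3 of E2 at 24 h and replicate 3 of IGF1 at 24 h in C57Bl6 mice, replicates 2 and 3 of IGF1 at 2 h in Ex3aERKO littermates, and replicate 1 of vehicle, replicate 2 of IGF1 at 2 h and replicate 1 of E2 at 2 h in ERaUtcKO littermates. With the liver-rich arrays left out Aldh1a1 passed for E2 as well, with its value unchanged (limma, adjusted p = 0.0449). Under IGF1, 5 differed, when 35.3% of all genes did, with Crabp1 higher by 2.12 ± 0.28 (adjusted p = 5.9e-08) and Rara lower at -0.74 ± 0.10 (adjusted p = 4.2e-08). Aldh1a2 was lower at 24 h than at 2 h of IGF1 as well, by -0.81 ± 0.17 (adjusted p = 0.00013), although ERaUtcKO littermates alone gave -0.27 (adjusted p = 0.442). Aldh1a1 was also called lower, with -1.11 in C57Bl6 mice and -1.06 in ERaUtcKO littermates. In Ex3aERKO littermates it was -0.45 and did not pass alone (adjusted p = 0.601). Cyp26a1 was lower by -0.34 ± 0.10 (adjusted p = 0.0054), which came from ERaUtcKO littermates (-0.94, adjusted p = 0.00026) and was -0.08 and -0.05 in the other sets. With the adipocyte marker mean as a covariate it was -0.27 and no longer called (adjusted p = 0.0719).

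Without hormone, both Esr1-deficient lines differed from littermates in the same direction: less Aldh1a1, more Stra6 and more Cyp26a1. Several of these calls depended on single arrays, as given below. Under vehicle, 3 of the 8 genes were called in Ex3aERKO mice, where 2.96% of all genes were, and 6 in ERaUtcKO mice, where 4.17% were. The counts are above these shares, but both rest on few arrays, as given below. The 8 genes were also chosen with earlier results of these data known, so these counts are descriptions only. Each knockout was compared with its own littermates, so the 2 comparisons share no arrays.

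Aldh1a1 read 6.71 and 8.27 in Ex3aERKO mice against 10.57 and 10.14 in littermates, and 8.22, 8.45 and 8.41 in ERaUtcKO mice against 9.77, 10.59 and 10.64. It was 7.29-fold lower in the first (-2.87 ± 0.62, adjusted p = 0.0145) and 3.93-fold lower in the second (-1.97 ± 0.30, adjusted p = 0.00036). Knockout arrays lay below littermate arrays not only under vehicle but under each of the 5 treatments in both lines. Aldh1a7 differed under vehicle by -0.26 and -0.41 (adjusted p = 0.910 and 0.663), with overlapping groups. In Ex3aERKO mice its arrays lay below those of littermates for E2 at 2 h (-0.88) and IGF1 at 24 h (-0.76). In ERaUtcKO mice they did so for IGF1 at 2 h (-1.31) and 24 h (-0.50). For the other treatments the Aldh1a7 groups overlapped. The part of Aldh1a7 in the Aldh1a1 values was not tested.

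Stra6 read 8.96 and 8.70 in Ex3aERKO mice against 7.74 and 7.82 in littermates, and 8.73, 9.19 and 8.95 in ERaUtcKO mice against 8.38, 8.55 and 8.32. It was 2.07-fold higher in the first (1.05 ± 0.22, adjusted p = 0.0118) and 1.45-fold in the second (0.54 ± 0.15, adjusted p = 0.0436), and every knockout array lay above every littermate array under each of the 5 treatments in both lines. Cyp26a1 read 7.60 and 7.65 in Ex3aERKO mice against 6.01 and 6.04 in littermates, and 7.04, 7.17 and 7.21 against 6.50, 6.36 and 6.47 in the ERaUtcKO set. It was 3.02-fold higher (1.59 ± 0.26, adjusted p = 0.0020) and 1.62-fold higher (0.69 ± 0.17, adjusted p = 0.0214). In the Ex3aERKO set all 14 littermate arrays lay between 5.75 and 6.24, and the knockout arrays were above them under every treatment.

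Aldh1a3 was 2.64-fold higher in ERaUtcKO mice (1.40 ± 0.13, adjusted p = 3.7e-07), at 8.93, 8.57 and 8.59 against 7.04, 7.26 and 7.57. In Ex3aERKO mice it read 8.35 and 7.94 against 7.79 and 7.27, a difference of 0.61 ± 0.22 that did not pass the test (adjusted p = 0.178). Aldh1a2 was 1.64-fold lower in ERaUtcKO mice (-0.71 ± 0.20, adjusted p = 0.0421) and differed by -0.22 in Ex3aERKO mice (adjusted p = 0.850). Crabp2 was lower in ERaUtcKO mice by -0.54 ± 0.15 (adjusted p = 0.0396), at or near background in both groups, so no fold is given. Crabp1 and Rara differed by -0.20 and -0.07 in Ex3aERKO mice and by 0.19 and -0.01 in ERaUtcKO mice, none of which passed (adjusted p = 0.922, 0.935, 0.815 and 0.971).

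In Ex3aERKO mice the calls for Aldh1a1 and Stra6 were lost without replicate 2 or 3 of littermate vehicle or replicate 2 of knockout vehicle. Each of these fits leaves 1 array in a vehicle group. In that order the log2 difference was -2.65, -3.08 and -2.09 for Aldh1a1 and 1.01, 1.09 and 0.92 for Stra6. In ERaUtcKO mice Aldh1a1 and Aldh1a3 were called without any one array, but the count fell from 6 to 2 without replicate 1 or 2 of littermate vehicle or replicate 2 or 3 of knockout vehicle. Without replicate 2 of knockout vehicle, Aldh1a2 gave -0.79 (adjusted p = 0.0650), Crabp2 -0.50 (0.131), Stra6 0.42 (0.211) and Cyp26a1 0.68 (0.0744). It also fell to 2 with the liver-rich arrays left out, which leaves 1 knockout vehicle array; those 4 genes then gave -0.78, -0.50, 0.31 and 0.59 (adjusted p = 0.263, 0.344, 0.557 and 0.339). The Stra6 call in ERaUtcKO mice was also lost, with its value unchanged, without some single arrays outside the vehicle groups. Examples are replicates 1, 2 and 3 of littermate E2 at 24 h (limma, adjusted p = 0.0517, 0.0510 and 0.0532). The Aldh1a2 call there was lost likewise, as without replicate 1 or 3 of littermate IGF1 at 24 h (limma, adjusted p = 0.0519 and 0.0511). After centring it was lost too (-0.66, adjusted p = 0.0884). The Crabp2 call was lost after centring (-0.49, adjusted p = 0.0607) and after quantile normalization (-0.45, adjusted p = 0.0592). Epithelial markers were higher in Ex3aERKO mice under vehicle, 7 of 14 with a median of 1.04, and 0 of 14 were called in ERaUtcKO mice, with a median of 0.31. Their part in the result was not tested.

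**Figure D3:**
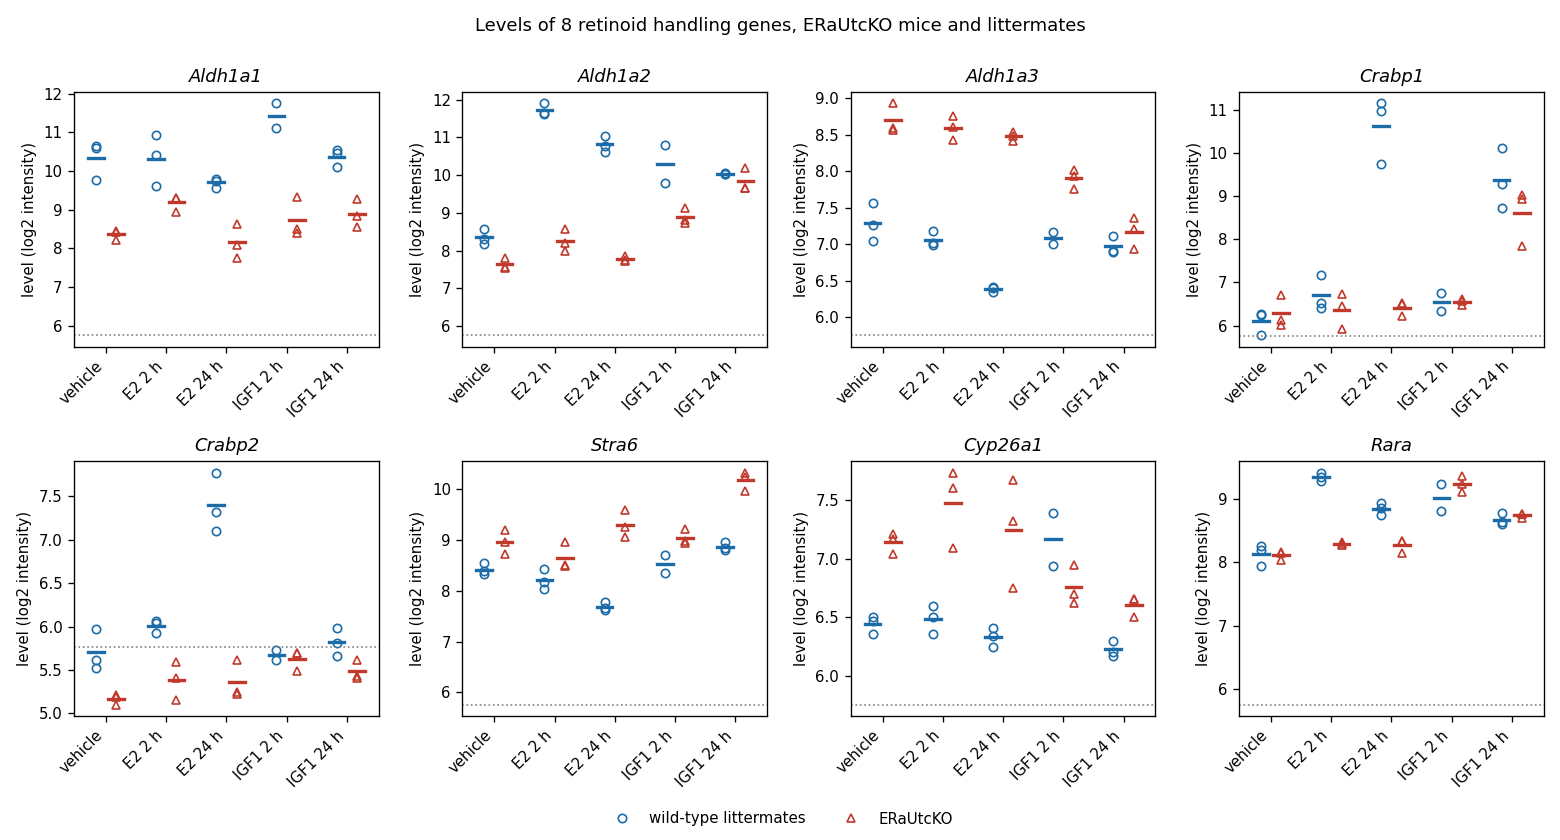
Deposited log2 intensity (y axis) of the 8 genes on each array of the ERaUtcKO set, by treatment (x axis: vehicle, E2 and IGF1 at 2 h and 24 h). Circles are littermate arrays, triangles ERaUtcKO arrays, bars group means and the dotted line the 95th percentile of the antigenomic controls; Stra6 triangles stand above the circles under every treatment and Aldh1a1 triangles below them.

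E2 left the 8 genes without a detected change in both Esr1-deficient lines. In Ex3aERKO mice limma called 0 of the 8 at 2 h, when it called 0.149% of all genes, and 0 at 24 h, when it called 0.00%; at an unadjusted p under 0.05 the counts were 1 and 0. In ERaUtcKO mice it called 0 of the 8 at 2 h against 0.491% of all genes and 0 at 24 h against 0.00%. At an unadjusted p under 0.05 the counts were 3 and 1. Stra6 was among the unadjusted ones at 2 h in both lines. It differed from vehicle by -0.54 in Ex3aERKO mice and -0.31 in ERaUtcKO mice, against -0.50 and -0.20 in their littermates. The knockout and littermate responses of Stra6 at 2 h were not called different in either line, so no loss of this fall was shown. With 2 or 3 arrays a group, changes could be missed. The intervals below were not adjusted for the number of genes tested. A change could therefore go uncalled even where its interval left out 0.

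Aldh1a2 read 8.05 and 7.91 at 2 h of E2 in Ex3aERKO mice against 7.94 and 8.50 under vehicle, a difference of -0.24 (95% interval -0.85 to 0.36). In ERaUtcKO mice it read 8.57, 8.21 and 7.98 against 7.57, 7.81 and 7.55, a difference of 0.61 (0.20 to 1.02, adjusted p = 0.249) without overlap. The knockout response minus the littermate response, called the interaction, was -3.42 ± 0.39 in Ex3aERKO mice (adjusted p = 1.5e-05) and -2.77 ± 0.28 in ERaUtcKO mice (adjusted p = 2.4e-07). Crabp1 read 6.33 and 7.04 at 24 h in Ex3aERKO mice against 6.30 on both vehicle arrays (0.38, interval -0.48 to 1.24), and 6.23, 6.50 and 6.52 in ERaUtcKO mice against 6.01, 6.70 and 6.14 (0.13, interval -0.61 to 0.87). Its interactions were -5.38 ± 0.56 (adjusted p = 6.8e-06) and -4.40 ± 0.51 (adjusted p = 6.4e-07), the largest of the 8 genes.

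The response to E2 at 2 h differed from that of littermates in 3 of the 8 genes in Ex3aERKO mice, where 9.43% of all genes differed, and in 2 in ERaUtcKO mice, where 13.8% did. Rara was in both, with interactions of -1.26 ± 0.23 (adjusted p = 0.0015) and -1.04 ± 0.14 (adjusted p = 1.2e-05); it read 7.82 and 7.54 at 2 h in Ex3aERKO mice and 8.32, 8.29 and 8.28 in ERaUtcKO mice, close to vehicle at 7.57 and 7.77 and at 8.16, 8.15 and 8.04. The interaction of Aldh1a3 at 2 h in Ex3aERKO mice, 1.11 ± 0.30 (adjusted p = 0.0224), was not called without replicate 2 of littermate vehicle (0.84, adjusted p = 0.143), replicate 3 of knockout vehicle (0.90, 0.116) or replicate 3 of knockout E2 at 2 h (0.92, 0.121). It was 0.13 in ERaUtcKO mice (adjusted p = 0.722).

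At 24 h the response differed in 4 of the 8 genes in Ex3aERKO mice, where 16.8% of all genes differed, and in 6 in ERaUtcKO mice, where 32.9% did. Crabp2 stayed below background, at 5.20 and 5.14 in Ex3aERKO mice and 5.22, 5.25 and 5.61 in ERaUtcKO mice, and littermates were at least 3.74-fold and 3.37-fold higher. The interactions were -2.08 ± 0.33 (adjusted p = 0.00026) and -1.50 ± 0.21 (adjusted p = 7.6e-06). Knockout vehicle arrays were below background as well, so the sizes of these interactions are uncertain. Aldh1a2 had interactions of -1.83 ± 0.39 (adjusted p = 0.0031) and -2.32 ± 0.28 (adjusted p = 1.2e-06). Aldh1a3, which fell in littermates, read 7.97 and 7.79 in Ex3aERKO mice and 8.53, 8.48 and 8.41 in ERaUtcKO mice, with interactions of 1.26 ± 0.30 (adjusted p = 0.0065) and 0.69 ± 0.18 (adjusted p = 0.0051); the latter was 0.46 with the liver-rich arrays left out (adjusted p = 0.137), when the knockout vehicle group has 1 array.

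Stra6 did not fall after 24 h of E2 in knockouts, reading 8.63 and 9.32 in Ex3aERKO mice and 9.26, 9.06 and 9.58 in ERaUtcKO mice. Its interaction was 1.07 ± 0.21 in ERaUtcKO mice (adjusted p = 0.00048) and 0.83 ± 0.30 in Ex3aERKO mice (adjusted p = 0.0663), where it was 1.18 without replicate 1 of knockout E2 at 24 h (adjusted p = 0.0139) and passed barely, with its value unchanged, without replicate 3 of littermate IGF1 at 24 h. Rara had an interaction of -0.57 ± 0.14 in ERaUtcKO mice (adjusted p = 0.0030) and -0.23 in Ex3aERKO mice (adjusted p = 0.554). Epithelial markers had negative interactions at 24 h as well, 9 of 14 and 11 of 14 called, with medians of -2.18 and -1.69; their part in the result was not tested.

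**Figure D4:**
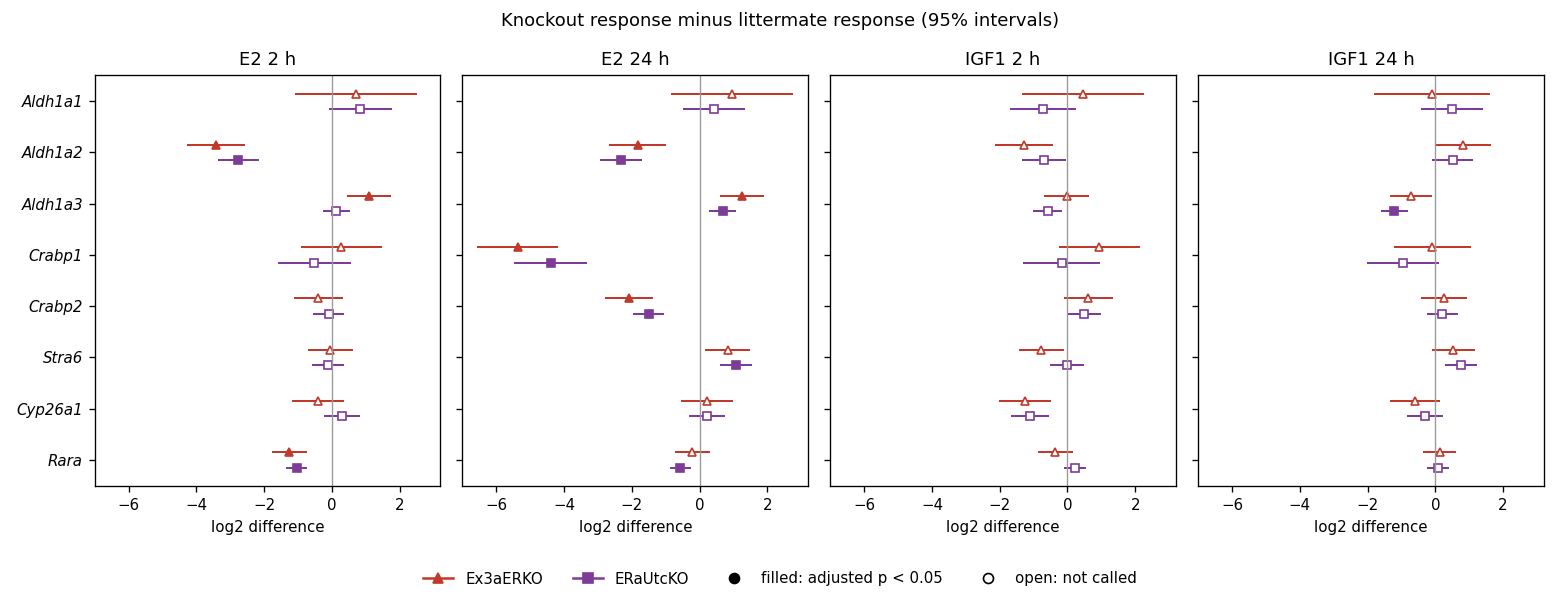
Difference between the knockout response and the littermate response to the same treatment (x axis, log2, with 95% confidence intervals) for each of the 8 genes (y axis), 1 panel for E2 and IGF1 at 2 h and 24 h each. Red triangles are Ex3aERKO and purple squares ERaUtcKO mice, filled where the adjusted p was under 0.05; 15 of the 16 filled symbols are in the E2 panels, down to -5.38 for Crabp1 at 24 h. Over all genes, too, far more interactions were called for E2 than for IGF1.

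IGF1 at 24 h changed Aldh1a2, Aldh1a3, Crabp1 and Stra6 in both Esr1-deficient lines in the direction seen in wild-type mice. These are all 4 genes called in wild-type mice at that time, all 4 called in Ex3aERKO mice, where 18.6% of all genes were called, and 4 of the 6 called in ERaUtcKO mice, where 32.4% were. The means compared in wild-type and knockout mice share no arrays. Littermate arrays entered both kinds of fit, however, and so both estimates of the spread.

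Crabp1 read 8.80, 8.52 and 9.39 at 24 h of IGF1 in Ex3aERKO mice against 6.30 on both vehicle arrays, and 9.03, 8.93 and 7.85 in ERaUtcKO mice against 6.01, 6.70 and 6.14. It rose 6.08-fold (2.60 ± 0.37, adjusted p = 0.00011) and 4.99-fold (2.32 ± 0.36, adjusted p = 2.3e-05), with no overlap. The interactions were -0.09 (95% interval -1.20 to 1.02, adjusted p = 0.993) and -0.95 ± 0.51 (adjusted p = 0.478), intervals wide enough to hold a 2-fold difference from littermates. Aldh1a2 read 9.56, 9.52 and 9.70 against 7.94 and 8.50 in Ex3aERKO mice, a 2.59-fold rise (1.37 ± 0.26, adjusted p = 0.0012). In ERaUtcKO mice it read 10.20, 9.66 and 9.66 against 7.57, 7.81 and 7.55, a 4.58-fold rise (2.20 ± 0.20, adjusted p = 2.1e-08).

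Stra6 read 9.77, 9.76 and 10.26 in Ex3aERKO mice and 10.24, 10.32 and 9.96 in ERaUtcKO mice at 24 h of IGF1, the highest group means of their sets. It rose 2.14-fold (1.10 ± 0.20, adjusted p = 0.00083) and 2.32-fold (1.22 ± 0.15, adjusted p = 1.4e-06). Aldh1a3 read 6.56, 6.74 and 6.60 in Ex3aERKO mice and 7.21, 6.93 and 7.36 in ERaUtcKO mice, and fell 2.84-fold (-1.51 ± 0.20, adjusted p = 5.6e-05) and 2.89-fold (-1.53 ± 0.13, adjusted p = 7.3e-09). These levels overlapped those of littermates under the same treatment. In ERaUtcKO mice the fall was larger than in littermates, with an interaction of -1.21 ± 0.18 (adjusted p = 0.0085); this was the 1 gene of the 8 called for that interaction, against 0.0498% of all genes. The same interaction was -0.71 ± 0.28 in Ex3aERKO mice (adjusted p = 0.532), where limma called 0 of the 8 against 0.0133% of all genes and 2 at an unadjusted p under 0.05.

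Rara rose 1.54-fold in ERaUtcKO mice at 24 h (0.62 ± 0.10, adjusted p = 2.9e-05) and differed by 0.24 in Ex3aERKO mice (adjusted p = 0.347). Cyp26a1 fell 1.45-fold in ERaUtcKO mice (-0.53 ± 0.17, adjusted p = 0.0193), a call lost without replicate 2 or 3 of knockout vehicle (adjusted p = 0.0513 and 0.0621) or replicate 1 of knockout IGF1 at 24 h (0.0728), after centring (0.0511) and with the liver-rich arrays left out (-0.43, 0.276), which leaves 1 knockout vehicle array. In Ex3aERKO mice it differed by -0.51 ± 0.24 (adjusted p = 0.166). Stromal markers were higher with IGF1 at 24 h in both lines, 6 of 12 and 9 of 12 with 1 lower in each, at medians of 0.96 and 1.05; their part was not tested.

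At 2 h of IGF1, 5 of the 8 genes were called in Ex3aERKO mice, where 15.7% of all genes were, and 4 in ERaUtcKO mice, where 29.3% were. Adipocyte marker means in Ex3aERKO mice were 10.8 and 10.2 on these arrays, against 7.41 and 9.82 under vehicle. With that mean as a covariate Aldh1a3 gave -0.63 (adjusted p = 0.0733) and was no longer called in that line, while the other 4 genes still were. Rara rose in both, 1.67-fold (0.74 ± 0.17, adjusted p = 0.0054) and 2.16-fold (1.11 ± 0.10, adjusted p = 5.0e-09); it read 8.67 and 8.15 in Ex3aERKO mice and 9.11, 9.23 and 9.36 in ERaUtcKO mice. Aldh1a3 fell in both, by 0.79 ± 0.22 (adjusted p = 0.0177) and 0.79 ± 0.13, that is 1.73-fold (adjusted p = 3.0e-05). Aldh1a2 rose 2.39-fold in ERaUtcKO mice (1.26 ± 0.20, adjusted p = 2.3e-05), at 8.82, 9.13 and 8.74, and read 8.69 and 8.84 in Ex3aERKO mice, 0.54 ± 0.29 above vehicle (adjusted p = 0.252).

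Some calls at 2 h appeared in knockouts but not in wild-type mice. Cyp26a1 fell 2.17-fold in Ex3aERKO mice (-1.12 ± 0.26, adjusted p = 0.0058), at 6.53 and 6.49 against 7.60 and 7.65, and differed by -0.38 in ERaUtcKO mice (adjusted p = 0.109, or 0.0432 without replicate 3 of knockout E2 at 24 h). In Ex3aERKO mice Crabp1 rose 2.86-fold (1.52 ± 0.41, adjusted p = 0.0154), at 8.53 and 7.10 against 6.30 on both vehicle arrays. Crabp2 rose at least 1.31-fold (0.92 ± 0.24, adjusted p = 0.0121) in that line; in ERaUtcKO mice it read 5.49, 5.69 and 5.70, all below background, with a difference of 0.46 ± 0.15 (adjusted p = 0.0200) that was lost without replicate 2 of knockout vehicle (0.0667), replicate 2 or 3 of knockout IGF1 at 2 h (0.0650 and 0.0688) or the liver-rich arrays (0.182), which leaves 1 knockout vehicle array. The 2 Ex3aERKO arrays at 2 h were unlike each other: without replicate 1, Crabp1 gave 0.80, Crabp2 0.75 and Rara 0.48, none called (adjusted p = 0.266, 0.111 and 0.108), and without replicate 2, Aldh1a3 gave -0.49 (adjusted p = 0.214). Without replicate 2 of knockout vehicle 1 of the 5 calls was left, Aldh1a3 giving -0.59 (0.200), Crabp1 1.52 (0.0758), Crabp2 0.84 (0.0929) and Rara 0.64 (0.0686), and without replicate 3 Crabp1 gave 1.51 (0.0710).

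Whether the 2 h response to IGF1 differed between knockouts and littermates was tested directly. Limma called 0 of the 8 genes in Ex3aERKO mice, against 0.00% of all genes, and 0 in ERaUtcKO mice, against 0.511%; at an unadjusted p under 0.05 the counts were 3 and 4. The nearest was Cyp26a1, with interactions of -1.24 ± 0.35 (adjusted p = 0.452) and -1.10 ± 0.26 (95% interval -1.63 to -0.57, adjusted p = 0.0533). In ERaUtcKO mice it passed without replicate 2 of littermate IGF1 at 2 h (-1.32, adjusted p = 0.0436), replicate 2 of knockout IGF1 at 2 h (-1.20, 0.0441), or, with its value unchanged, replicate 1 or 2 of knockout E2 at 2 h (0.0298 and 0.0467) and replicate 1 or 3 of knockout E2 at 24 h (0.0261 and 0.0143). Aldh1a2 gave -1.28 ± 0.39 in Ex3aERKO mice (interval -2.10 to -0.45, adjusted p = 0.453) and -0.70 in ERaUtcKO mice (adjusted p = 0.397).

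The order of levels over treatments and genotypes set the 8 genes apart. Crabp1 spanned the widest range, from a group mean of 6.30 in vehicle-treated Ex3aERKO mice to 12.26 in their littermates at 24 h of E2, 5.96 apart, with a median SD within groups of 0.42. Aldh1a2 ran from 7.64 in vehicle-treated ERaUtcKO mice to 11.73 in their littermates at 2 h of E2, with a median SD of 0.20. Stra6 was lowest in littermates at 24 h of E2 and highest in knockouts at 24 h of IGF1 in both knockout sets, from 7.10 to 9.93 and from 7.69 to 10.17. Rara moved least of the 8 among those above background in every set, between 7.67 and 9.01 in the Ex3aERKO set, 8.12 and 9.35 in the ERaUtcKO set and 9.34 and 10.38 in C57Bl6 mice.

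The genes most alike in pattern were sought among 5272 genes whose group mean moved by at least 1 from vehicle, by the Pearson correlation of 25 group means, each taken relative to vehicle of the same set and genotype; the vehicle groups are shared by construction, so the values are descriptions. Crabp1 was followed most closely by Jpt2 (r = 0.990), Cks1b (0.983) and Gins2 (0.975), the last 2 known for roles in cell division and DNA replication. Aldh1a2 was followed by Rhoc (0.939), Umps (0.937) and Scube1 (0.935), and Rara by Ets2 (0.952), Rbm22 (0.951) and Cdv3 (0.948). Crabp2 ran with Sel1l3 (0.933), Radx (0.929) and Ceacam1 (0.927), and Aldh1a3 with Prelp (0.918), Aldh6a1 (0.910) and Nfat5 (0.905). The nearest genes were less close for Stra6, with Tmem132c at 0.870, Plxna2 at 0.820 and Ntm at 0.816. Aldh1a1 had Sbspon at 0.859, Gstm7 at 0.850 and Lgi1 at 0.845. Cyp26a1 had the loosest matches, Asf1a at 0.717, Slc5a11 at 0.695 and Ptpn14 at 0.656.

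The other genes of the route were listed by role. Among 18 measured genes of retinoid uptake, storage and release, E2 changed 6 upward and 2 downward at 2 h (median 0.08) and 2 and 6 at 24 h (median -0.20), which is near the 40.0% of all genes at 2 h and below the 56.2% at 24 h. Lrat, the enzyme that stores retinol as esters, rose by 1.73 ± 0.15 at 2 h (adjusted p = 1.0e-12). Under IGF1 the counts were 3 and 2 at 2 h and 2 and 6 at 24 h, when 35.9% and 40.9% of all genes were called. Lrp2, an endocytic receptor that takes up the retinol carrier, rose with IGF1 at 2 h and 24 h by 2.28 and 1.64 in wild-type mice, 2.84 and 2.77 in Ex3aERKO mice and 2.56 and 3.09 in ERaUtcKO mice (adjusted p from 0.00024 to 2.2e-08). It also rose by 3.17 ± 0.46 at 2 h of E2 in Ex3aERKO mice (adjusted p = 0.0059). Rbp7, a cellular retinol-binding protein, rose by 1.34 and 1.04, 1.85 and 2.07, and 1.54 and 1.95 in the same order.

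Of 21 measured genes that oxidize or reduce retinol and retinal, 4 rose and 8 fell at 2 h of E2 (median -0.04) and 6 rose and 6 fell at 24 h (median 0.05); 40.0% and 56.2% of all genes were called, so the 24 h count is at the background. Adh1, an alcohol dehydrogenase, rose by 1.79 at 2 h, and Rdh10, the main retinol dehydrogenase of the embryo, fell by 1.06. Dhrs9, another retinol dehydrogenase, rose by 4.33 ± 0.15 at 24 h (adjusted p = 7.9e-24), with interactions of -3.95 and -3.96 in Ex3aERKO and ERaUtcKO mice. Akr1b8 and Dhrs4, reductases of retinal, rose with IGF1 at 24 h by 1.68 and 1.24 in wild-type, 2.33 and 0.97 in Ex3aERKO and 2.22 and 1.40 in ERaUtcKO mice.

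Among 4 measured genes listed for retinoic acid breakdown, other than Cyp26a1, 2 were higher under vehicle in each knockout. In these comparisons 2.96% (Ex3aERKO) and 4.17% (ERaUtcKO) of all genes were called. Cyp1b1, a cytochrome P450 that acts on estrogens and retinoids, was on this list but is not a dedicated retinoic acid breakdown enzyme. The 2 are therefore not read as a rise of breakdown genes. Cyp1b1 was higher by 2.50 ± 0.29 in Ex3aERKO mice (adjusted p = 8.7e-05) and 1.47 ± 0.27 in ERaUtcKO mice (adjusted p = 0.0017). Cyp26c1, a relative of Cyp26a1, was higher by 1.14 ± 0.20 (adjusted p = 0.0027) and 0.39 ± 0.09 (adjusted p = 0.0089). Both were lower again at 2 h of IGF1 in the knockouts, Cyp1b1 by -1.28 and -0.70 and Cyp26c1 by -0.79 and -0.30.

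Of 14 measured retinoid receptors and partners, 1 rose and 9 fell at 2 h of E2 (median -0.29, against -0.05 over all genes), when 40.0% of all genes were called. Nrip1, a corepressor that binds nuclear receptors, rose by 3.57 ± 0.06 (adjusted p = 2.6e-34), and Nr2f2, an orphan receptor that can bind retinoid response elements, had the largest fall (-2.66, adjusted p = 4.6e-25). Of 15 measured genes that retinoic acid is known to switch on, 2 rose and 7 fell at 2 h and at 24 h of E2 and at 2 h of IGF1, and 2 rose and 5 fell at 24 h of IGF1. Medians were -0.08, -0.10, -0.17 and -0.13, and 40.0%, 56.2%, 35.9% and 40.9% of all genes were called, so the 24 h counts are near the background. Tgm2, a transglutaminase, rose in all 4 comparisons, by 0.50, 1.75 and 0.94 in the first 3, in which the homeobox gene Meis2 fell by 1.97, 1.12 and 1.02. Receptor and target lists overlap, Nrip1 being on both.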

How the data were processed

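RNA of whole uterus was labelled with an Affymetrix kit and hybridised to 1 array per sample, per the labels' protocols. The authors deposited 1 log2 intensity per probe set and array; their background correction and normalization are not given in the sources used here, and levels differ between mouse sets for that reason or another. Of 32750 annotated probe sets, 30604 had 1 gene symbol and 2146 had several, and the latter were left out with 39938 that the annotation does not list. For 355 genes with several probe sets the one with the highest mean over 68 arrays was kept, giving 30142 genes. No 2 arrays held identical values.

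On the deposited log2 values, 26 comparisons were made by linear models with moderated variances (limma 3.58.1, R 4.3.3), and p-values were adjusted by Benjamini-Hochberg over all genes. Wild-type comparisons used 42 arrays with mouse set as a term (35 residual degrees of freedom), and each knockout was fitted with its littermates (25 and 29 arrays, 15 and 19 degrees of freedom). The interaction is the knockout response minus the littermate response. The number of arrays limits the precision. The fit was also run on simulated data with known changes, and no result given here rests on that run. Fold changes against a group below background replaced that group by the array background.

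The 8 genes and all gene lists were chosen with earlier results of these data known. All 8 genes were tested in every comparison, but not every one of these results is printed. From each list, up to 2 of the largest rises and falls among called genes were taken, and a selection of those is printed. Aldh1a7 and Esr1 are named as near copy and target, and for each of the 8 genes the 3 most similar patterns, predicted and RNA genes passed over. Alternatives were median centring, quantile normalization, dim genes left out, all probe sets averaged, a trended robust prior variance, 1 model of all arrays, single mouse sets, a replicate block and leaving out each array. Leaving out arrays rich in liver transcripts and an adipocyte covariate were chosen after seeing the data.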

Additional observations from a re-analysis of the deposited data

Results flagged for a closer look

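The response to a hormone differed between a knockout and its littermates in 16 of the 64 interaction tests made on the 8 genes (limma, adjusted p under 0.05), 15 of them under E2 and 1 under IGF1. Of all genes, 9.43% and 16.8% were called for E2 at 2 h and 24 h in Ex3aERKO mice, and 13.8% and 32.9% in ERaUtcKO mice. For IGF1 the shares were 0.00%, 0.0133%, 0.511% and 0.0498% in the same order. The split between E2 and IGF1 is therefore not particular to the 8 genes. For E2 at 2 h the knockout response minus the littermate response was -3.42 for Aldh1a2, -1.26 for Rara and 1.11 for Aldh1a3 in Ex3aERKO mice, and -2.77 for Aldh1a2 and -1.04 for Rara in ERaUtcKO mice. For E2 at 24 h it was -5.38 for Crabp1, -2.08 for Crabp2, -1.83 for Aldh1a2 and 1.26 for Aldh1a3 in Ex3aERKO mice. In ERaUtcKO mice at 24 h it was -4.40 for Crabp1, -1.50 for Crabp2, -2.32 for Aldh1a2, -0.57 for Rara, 0.69 for Aldh1a3 and 1.07 for Stra6. The sizes for Crabp2 are uncertain, since its knockout groups lay below background. Under IGF1 the 1 value was -1.21 for Aldh1a3 at 24 h in ERaUtcKO mice. The groups held 2 or 3 arrays, too few to tell whether a single array was outlying. Some of these calls depended on few arrays, as given above. The Aldh1a3 interaction for E2 at 2 h in Ex3aERKO mice was not called without certain single arrays. That of Aldh1a3 for E2 at 24 h in ERaUtcKO mice was 0.46 with the liver-rich arrays left out, which leaves 1 knockout vehicle array.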

How the results depend on the processing

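The count of the 8 genes called moved by more than 1.5 times in these settings. For E2 at 2 h in wild-type mice it was 2 in place of 4 in ERaUtcKO littermates alone, and for IGF1 at 24 h against 2 h it was 3 in place of 5 in Ex3aERKO littermates alone and in ERaUtcKO littermates alone. For the IGF1 interaction at 2 h it was 1 in place of 0, always Cyp26a1, in Ex3aERKO mice with 1 model of all arrays (adjusted p = 0.0419) and in ERaUtcKO mice after quantile normalization (0.0337), with dim genes left out (0.0433) and with 1 model of all arrays (0.0492). For vehicle in ERaUtcKO mice it was 2 in place of 6 with the liver-rich arrays left out, an alternative chosen after seeing the data; this removes 3 arrays from that fit and leaves 1 knockout vehicle array, so fewer samples enter the test. For the other settings the cause was not tested. Rara reversed at 24 h of E2 in C57Bl6 mice alone (-0.0368, adjusted p = 0.803).

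Leaving out 1 array at a time gave, for wild-type mice, 4 to 5 genes for E2 at 2 h, 7 to 7 at 24 h, 3 to 4 and 4 to 5 for IGF1, 2 to 4 and 5 to 6 for E2 against IGF1, and 6 to 7 and 5 to 6 for 24 h against 2 h of E2 and IGF1. For Ex3aERKO mice the ranges were 1 to 3 under vehicle, 0 to 0 for E2 at both times, 1 to 5 and 4 to 4 for IGF1, and 2 to 3, 4 to 5, 0 to 0 and 0 to 0 for the interactions. For ERaUtcKO mice they were 2 to 6 under vehicle, 0 to 0 for E2 at both times, 3 to 5 and 5 to 6 for IGF1, and 2 to 2, 6 to 6, 0 to 1 and 1 to 1 for the interactions. Averaging probe sets left the call and direction of all 208 differences of the 8 genes, but each has 1 probe set, so their values could not change. The trended prior also left all 208. Centring left 200 of them, quantile normalization 200 and the adipocyte covariate, also chosen after seeing the data, 205; leaving out dim genes, which drops Crabp2 and Cyp26a1 from the wild-type fit, left 189 and gained 3 calls.

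Same-numbered arrays did not deviate together (median correlations -0.14 to 0.01), so the replicate numbers were not taken as pairs. With a replicate block 206 of 208 differences kept call and direction; in ERaUtcKO mice under vehicle Aldh1a2 (-0.71, adjusted p = 0.055) and Crabp2 (-0.54, adjusted p = 0.0524) passed no longer.

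Scaling moved the share of higher calls over all genes by more than 10 points in some knockout comparisons. Centring changed it from 48.2% to 63.7% for ERaUtcKO vehicle, from 52.0% to 65.2% for IGF1 at 24 h in ERaUtcKO mice, from 37.7% to 24.2% for the Ex3aERKO E2 interaction at 24 h, and from 48.6% to 31.9%, 52.7% to 34.3% and 26.7% to 6.25% for the ERaUtcKO interactions with E2 at 2 h, E2 at 24 h and IGF1 at 24 h. Quantile normalization changed it from 63.1% to 48.8% for IGF1 at 24 h in Ex3aERKO mice, from 81.1% to 70.4% for E2 at 2 h in ERaUtcKO mice and from 26.7% to 10.0% for the ERaUtcKO IGF1 interaction at 24 h, and it called 16 genes for E2 at 24 h in Ex3aERKO mice in place of 0. Signal limits Crabp2 and Cyp26a1, which lay near or below background in C57Bl6 mice.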

Other observations

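Among the 15 measured genes that retinoic acid is known to switch on, 2 were lower in Ex3aERKO mice under vehicle, Tgm2 (-1.56, adjusted p = 0.0285) and the homeobox gene Meis2 (-0.89, adjusted p = 0.0388), and 1 in ERaUtcKO mice, Rarres2 (-0.82, adjusted p = 0.0376), by limma with adjustment over all genes. Of all genes 2.96% and 4.17% were called in these comparisons, so 1 of 15 in ERaUtcKO mice is near that share. The retinol dehydrogenase gene Rdh10 was lower in ERaUtcKO mice under vehicle by -1.19 (adjusted p = 6.6e-05). Tgm2 rose with IGF1 at 24 h in both knockouts, by 1.26 in Ex3aERKO and 2.24 in ERaUtcKO mice. At 2 h of E2 the interactions of Nr2f2 were 2.69 in Ex3aERKO and 2.29 in ERaUtcKO mice and those of Nrip1 -3.12 and -2.78, and those of Lrat, the retinol-storing enzyme, were -1.56 (adjusted p = 6.9e-05) and -1.34 (adjusted p = 0.0096).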
